A study of Mus musculus with 23 samples.

Results

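Ribosome footprints of mouse bone-marrow-derived macrophages (BMDMs) after 4 hr of LPS were compared with those of untreated BMDMs, to describe how the make-up of protein synthesis shifted. A footprint, or RPF, is the stretch of mRNA that a ribosome protects from nuclease digestion, and its density on a coding sequence reflects how many ribosomes translate that mRNA. The comparison rests on 4 of the 23 samples of the series: 2 Ribo-seq libraries at 0 hr and 2 at 4 hr, replicates A and B of each time. All came from C57BL/6 bone marrow cells grown for 7 days in DMEM with 10% FBS and 20% L929 supernatant, the source of the growth factor that drives macrophage differentiation. The 0 hr cells were untreated controls, and the 4 hr cells had received LPS at 100 ng/ml. Which mice gave each replicate, and whether marrow was pooled, is not stated, so p-values measure the spread between these cultures. The deposited table holds 6397 genes, of which 5277 had a mean of at least 10 RPKM (reads per kilobase of transcript, scaled to the mapped reads of the library) over the 10 Ribo-seq libraries of the time course and were tested. Of the other 1120 genes, those nearest to the limit were Lss, Snx13 and Cog3 at 9.99, 9.98 and 9.97 RPKM, and Atrn, Mtmr10 and Thap11 lay just inside it at 10.01, 10.02 and 10.03 RPKM.

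LPS, from the outer membrane of Gram-negative bacteria, is sensed by Tlr4 at the macrophage surface. Signals through the adaptor MyD88 activate NF-kB and MAP kinases and induce cytokines, chemokines and their feedback inhibitors. Signals through the adaptor TRIF lead to interferon beta, which acts back on the cells through its receptor and induces interferon-stimulated genes. Resting BMDMs instead devote much of their synthesis to lysozyme, lysosomal proteases, lipid-handling proteins and the actin cytoskeleton.

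The steps between low RPKM values gave an estimate of 1280000 reads for 0 hr A, 2310000 for 0 hr B, 3460000 for 4 hr A and 1980000 for 4 hr B. A tested gene with 1 annotated mRNA had a median of 77 and 134 reads at 0 hr and of 153 and 93 reads at 4 hr. Pearson's r of log2(RPKM + 1) between replicates, across genes, was 0.954 at 0 hr and 0.984 at 4 hr. Reads differed between replicates by more than sampling noise at both times (chi-square per degree of freedom 5.13 and 3), so no library was a copy of another. Of 12 macrophage markers, 11 were in the table, and their summed RPF RPKM was 51161 to 56632 at 0 hr and 29156 to 29247 at 4 hr, a sum in which Lyz2 has the largest part. Of these 11 genes 3 rose and 5 fell, and their median change of -0.46 lay near that of all genes. The table held 0 of 12 neutrophil, 0 of 13 lymphocyte, 0 of 10 erythroid and 0 of 8 dendritic cell markers, and 1 of 8 fibroblast markers was, below the limit. The table holds no value of 0 in any library, so a gene missing from 1 library would not be in it. The cultures are measured in bulk, where fewer cells of a type and less RNA per cell cannot be told apart.

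Within 4 hr of LPS, 36.9 percentage points of the summed RPF RPKM shifted from genes that lost share to genes that gained it. Comparing single libraries, 36.9 to 37.4 points separated any 4 hr library from any 0 hr library, while 7.39 points separated the 0 hr replicates and 4.7 points the 4 hr replicates. Of the 6397 genes, 1677 gained share. The 10 with the largest gain took up 16 points, and the 10 with the largest loss gave up 9.75 points. Synthesis also became concentrated on fewer genes: 181 and 190 genes made up 50% of the RPKM in the 0 hr libraries, and 118 and 119 genes did so at 4 hr. This difference lay in the range below the top, since the 10 leading genes of each library held 21.6% and 20.8% at 0 hr and 20.8% and 21.6% at 4 hr, while the 100 leading genes held 43.1% and 42.4% and then 47.8% and 47.7%. The leading genes were exchanged in part, since Tmsb4x, Lyz2, Ctsb, Actb, Spp1 and B2m were among the leading 10 at both times. The 10 genes on top at 0 hr held 12.4% and 12.5% at 4 hr, and the 10 on top at 4 hr had held 16.8% and 15.9% at 0 hr. A share is a description here, because with 2 libraries against 2 an exact permutation test cannot go below a two-sided p of 0.33.

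**Figure D1:**
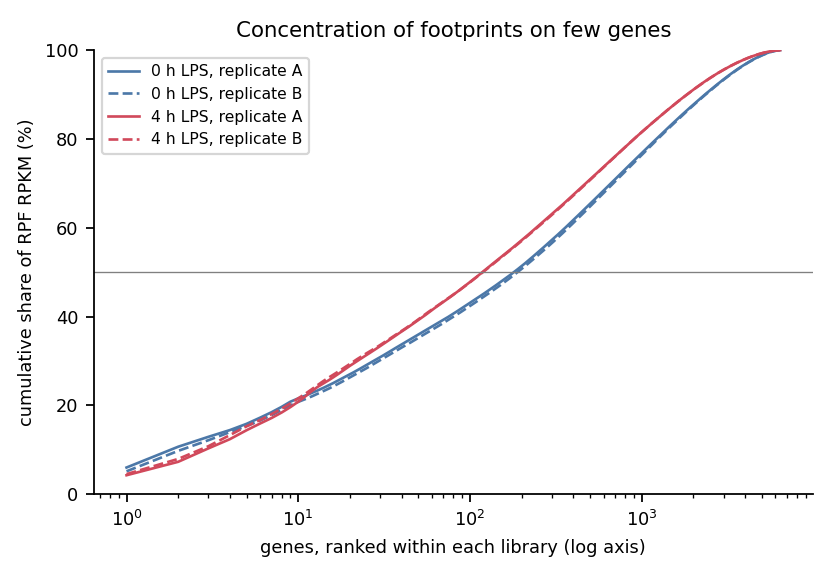
Cumulative share of the summed RPF RPKM (%) against the number of genes, ranked within each library on a log axis, for the 2 libraries at 0 hr (blue) and the 2 at 4 hr of LPS (red). The grey line at 50% is crossed at 181 and 190 genes at 0 hr and at 118 and 119 genes at 4 hr.

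Gene by gene, 617 of the 5277 tested genes had more RPFs at 4 hr than at 0 hr and 1241 had fewer, by limma on log2(RPKM + 1) at a Benjamini-Hochberg adjusted p under 0.05. These are 11.7% and 23.5% of the tested genes. Both 4 hr libraries lay above both 0 hr libraries for 22.1% of the genes and below them for 58.3%. RPKM is scaled to the mapped reads of a library, so all values are relative, and their sum was 825799 to 904075 in these 4 libraries. The median change over all tested genes was -0.50 on the log2 scale, and its cause was not tested. Centring the libraries on their medians left 788 rises and 685 falls, all 617 rises were kept, and no gene changed direction. Of the rises, 324 were over 4-fold, and of the falls 273. The number of falls depended on single libraries. It was 594 without 0 hr replicate A, 734 without 0 hr replicate B, 531 without 4 hr replicate A and 603 without 4 hr replicate B, while the rises numbered 424 to 504 in these fits. Without 1 hr replicate B and 6 hr replicate A, a setting chosen for the low replicate agreement at 1 hr and the low depth of the latter, there were 715 rises and 1770 falls. Among the 222 tested genes with a mean under 10 RPKM at 0 hr, which entered the test through later times, 138 rose. Among the 4452 with at least 10 RPKM at both times, 479 rose and 926 fell.

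Of 34 gene lists, 10 had a larger share in both 4 hr libraries than in both 0 hr libraries, 21 a smaller one, and 3 overlapped. All lists were chosen with earlier results of these data known, so their counts of rises and falls are no independent result. The lists held 1513 genes, and for shares a gene on several lists was counted on the first. Shares of a library add up to a fixed total, so a gain of some lists lowers others. The share of genes on no list changed by a factor of 0.813. Lists such as ribosomal proteins (0.831), splicing factors (0.834), glycolysis (0.896) and cytosolic chaperones (0.897) fell by less. The share of chemokines rose most in percentage points, by 14, followed by interferon-stimulated genes with 4.44. The share of resting secreted proteins of macrophages changed by -5.13 points, that of the actin cytoskeleton by -3.89 and that of lysosomal proteins by -3.38, and the 4884 genes on no list went from 38.2% and 38.4% to 31.3% and 30.9%.

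**Figure D2:**
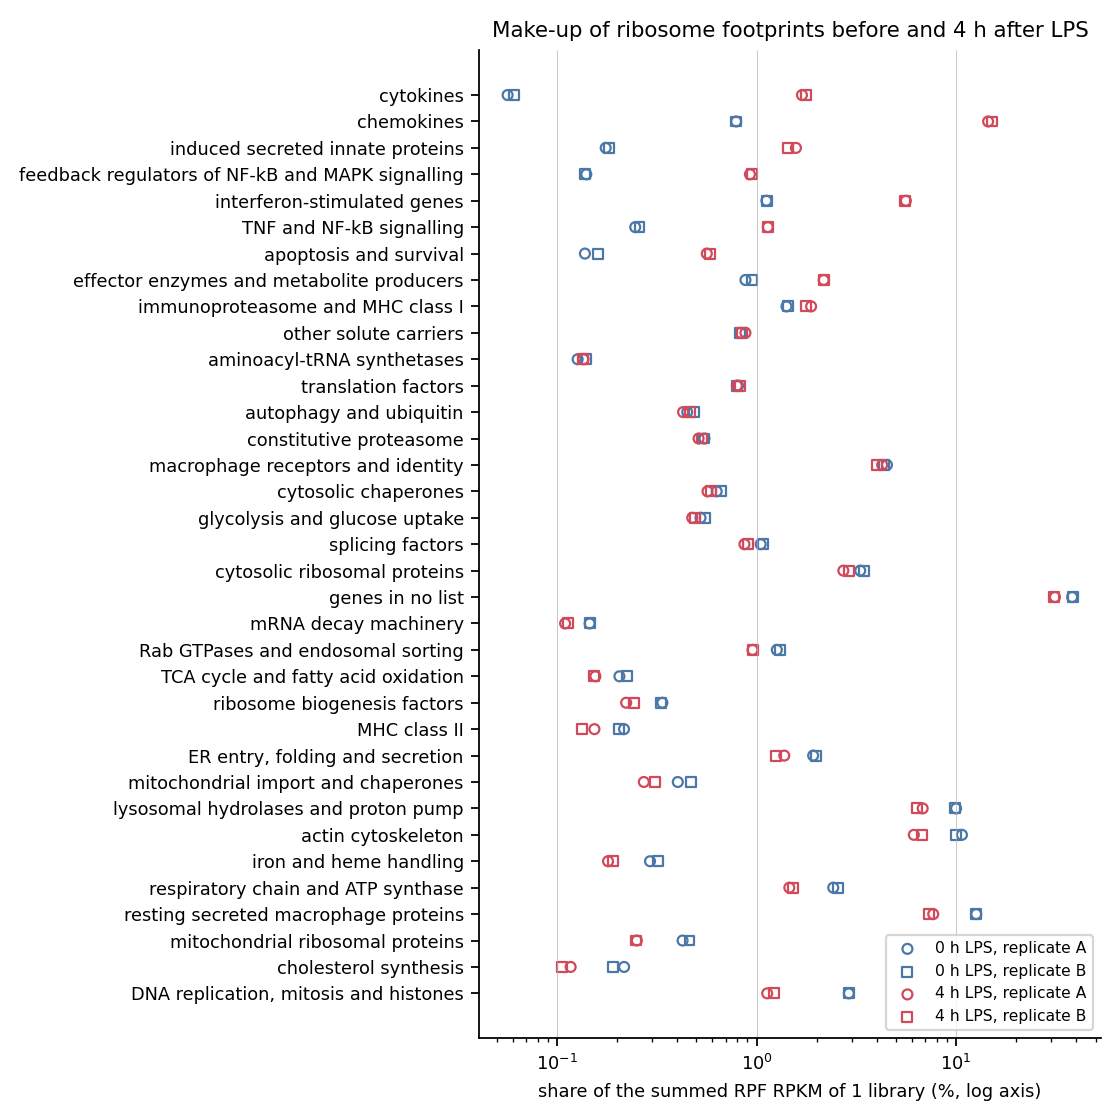
Share of the summed RPF RPKM (%, log axis) of 34 gene lists and of the genes on no list, for the 2 replicates at 0 hr (blue) and at 4 hr of LPS (red), ordered by the ratio of the mean shares. Cytokines went from 0.0565% and 0.0609% to 1.69% and 1.78%, chemokines from 0.79% and 0.785% to 14.5% and 15.1%, and genes of DNA replication, mitosis and histones from 2.9% in both to 1.13% and 1.22%.

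Chemokines, the secreted proteins that draw leukocytes to a site of infection, became the largest group of induced products. Of 14 tested members, 11 rose and 3 fell, with a median log2 change of 5.40 against -0.50 over all genes. The chemokine median was 4.99 with at least 10 RPKM required in every library. The list held 0.79% and 0.785% of RPF RPKM at 0 hr and 14.5% and 15.1% at 4 hr, 18.8 times as much. The factor was 4.72 when the 10 genes with the largest share at 0 hr and the 10 at 4 hr were left out. Ccl4, Ccl3, Cxcl10 and Ccl5 were left out there for their share at 4 hr. Ccl4, which attracts monocytes and T cells, had 600.2 and 527.6 RPKM at 0 hr and 37194 and 41023 RPKM at 4 hr, and moved from rank 208 to rank 1 of all genes. Its log2 change was 6.12 (SE 0.11, limma adjusted p = 2.15e-10). Ccl3, its neighbour and relative, a ligand of Ccr1, had 413.4 and 268.5 RPKM and then 26261 and 30958 RPKM. Cxcl10, a ligand of Cxcr3 on T cells that responds to interferon as well as NF-kB, went from 130.6 and 140.4 RPKM to 26263 and 25913 RPKM, a change of 7.58 (SE 0.12, adjusted p = 1.19e-10). Their shares at 4 hr were 4.29% and 4.54% for Ccl4, 3.03% and 3.42% for Ccl3 and 3.03% and 2.87% for Cxcl10. Ccl5, which attracts T cells, rose from 48.67 and 87.33 to 10781 and 11042 RPKM. Ccl2 and Ccl7, ligands of the monocyte receptor Ccr2, reached 6424 and 7744 RPKM and 6015 and 6834 RPKM, from 231.4 and 210.9 and from 128.8 and 119.1. For each of these genes the groups lay far apart compared with the gap between replicates.

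The rise did not cover every chemokine. Ccl9, which was already abundant at 0 hr with 3239 and 2913 RPKM, rose by 1.48 (SE 0.13) to 8449 and 8725 RPKM. Cxcl16 rose by 0.84 (SE 0.22, adjusted p = 0.014), from 180.3 and 194.8 to 326.7 and 347.4 RPKM. The 3 falls were of chemokines that resting cells translated, Ccl6 by 1.27, Cxcl14 by 1.44 and Pf4, platelet factor 4, by 0.81 on the log2 scale. Cxcl2, which attracts neutrophils, had 33.95 and 2.897 RPKM at 0 hr, replicates far apart, and 1498 and 1656 RPKM at 4 hr (change 7.08, SE 0.72). The Ccl genes are a mouse multigene family, and reads shared by close copies such as Ccl2 and Ccl12 cannot be assigned with certainty. On mm10, the mRNA of Ccl4 lies on chromosome 11 from 83662584 to 83664683 and that of Ccl3 on the same chromosome from 83647843 to 83649378, while Cxcl10 lies on chromosome 5 from 92346638 to 92348889.

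The promoters of the induced genes with the largest gain of share carry motifs of the factors named above in some cases. Shown here are the 250 bases before the annotated start (RefSeq, GRCm38.p6) of Cxcl10, Rsad2 and Ccl3, which were the genes of highest gain that the promoter table holds. Capitals mark the interferon-stimulated response element, searched as TTTCNNTTTC, and the NF-kB consensus of 10 bases, both on either strand. The Cxcl10 window (chr5:92348890-92349139, minus strand) holds 1 interferon element with its first base at -213 from the gene's start and 3 NF-kB matches at -159, -104 and -103, the last 2 overlapping. The Rsad2 window (chr12:26456453-26456702, minus strand) holds 1 interferon element at -120, and the Ccl3 window (chr11:83649379-83649628, minus strand) has neither set of letters.
Cxcl10: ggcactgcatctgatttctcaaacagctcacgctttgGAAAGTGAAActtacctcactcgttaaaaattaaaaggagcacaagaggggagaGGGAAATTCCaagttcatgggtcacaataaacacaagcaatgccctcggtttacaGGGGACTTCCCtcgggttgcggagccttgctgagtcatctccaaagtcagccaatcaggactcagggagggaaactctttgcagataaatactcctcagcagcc
Rsad2: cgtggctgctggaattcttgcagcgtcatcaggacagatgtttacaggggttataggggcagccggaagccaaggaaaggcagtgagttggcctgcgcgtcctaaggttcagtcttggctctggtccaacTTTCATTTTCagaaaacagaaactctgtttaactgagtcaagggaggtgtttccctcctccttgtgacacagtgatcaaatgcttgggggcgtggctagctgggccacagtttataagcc
Ccl3: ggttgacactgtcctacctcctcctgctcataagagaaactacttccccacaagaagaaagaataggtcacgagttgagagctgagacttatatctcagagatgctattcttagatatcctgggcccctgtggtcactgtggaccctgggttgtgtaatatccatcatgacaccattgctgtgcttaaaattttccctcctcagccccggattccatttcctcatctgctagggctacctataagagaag

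Over all promoter windows, 2.98% of 32851 held the interferon element and 7.25% the NF-kB consensus. For the 5302 windows of tested genes these parts were 3.34% and 9.05%. Windows of genes with more RPFs at 4 hr held them in 8.33% and 15% of 672 windows (492 of the 617 genes matched), those of genes with fewer RPFs in 2.52% and 9.34% of 1231, and those of genes past neither threshold in 2.65% and 7.77% of 3399. On the list of interferon-stimulated genes, 31.1% of 74 windows held the interferon element. Of the 9 windows of chemokines, 4 held the NF-kB consensus. Cytosolic ribosomal proteins, of which 1 of 80 rose, held the interferon element in 8.7% of 69 windows. Of 13 windows of cytokines, 0 held the interferon element and 4 the NF-kB consensus. These are counts of letters and describe no binding.

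Cytokines formed a far smaller share than chemokines but rose from a lower start. Of 13 tested members, 11 rose and 1 fell, with a median of 5.71, and their share went from 0.0565% and 0.0609% to 1.69% and 1.78%. Some members, such as Il27 and Il12b, lay under 10 RPKM at 0 hr and entered the test through later times, which favours rises. With at least 10 RPKM required in every library, the cytokine median was 4.12. Il1b, the pyrogenic cytokine interleukin 1 beta, took the largest part with 4661 and 5316 RPKM at 4 hr, against 13.51 and 14.99 RPKM at 0 hr (change 8.35, SE 0.15, limma adjusted p = 2.15e-10). Il6, an inducer of the acute-phase response, went from 6.31 and 13.12 to 2229 and 2468 RPKM, and Tnf from 66.18 and 22.94 to 1955 and 2246 RPKM. Il10, an anti-inflammatory cytokine, rose by 5.80 (SE 0.34), from 5.844 and 13.78 to 563 and 555.1 RPKM. Il1rn, the secreted antagonist of the interleukin 1 receptor, had 40.17 and 56.15 RPKM at 0 hr and 2209 and 2214 RPKM at 4 hr. Tgfb1, a suppressor of inflammation, fell by 0.76 (adjusted p = 0.016), a call lost without 0 hr replicate A, without 0 hr replicate B or without 4 hr replicate B. Gdf15 did not pass the test at 0.852 and 4.25 RPKM and then 4.73 and 8.82 RPKM.

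The largest rises of all tested genes were those of Il27 and Il12b, subunits of cytokines that steer T helper cells. Il27 had 1.109 and 1.845 RPKM at 0 hr and 769.2 and 917.9 RPKM at 4 hr (change 8.42, SE 0.55, limma adjusted p = 2.32e-06). Il12b had 0.774 and 0.859 RPKM and then 591.4 and 607 RPKM (change 8.37, SE 0.22). Their 0 hr values stand for only 1 and 3 reads and for 1 and 2 reads. As rates of reads the ratios were 522 (95% exact interval 204 to 1916) and 721 (247 to 3498), intervals that cover counting error only. The next largest rises, of 7.47 to 8.35, were Il1b, Il6, the GTPase Gbp5, the nitric oxide synthase Nos2, Il1a, the lymphocyte activation antigen Cd69, Cxcl10 and the prostaglandin synthase Ptgs2.

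Interferon-stimulated genes rose almost as a block. Of 72 tested members 66 rose and 1 fell, with a median of 3.25, or of 2.64 with at least 10 RPKM required in every library. The share went from 1.12% in both 0 hr libraries to 5.6% and 5.52%, a factor of 4.96, or of 8.92 when weighted by coding length. Rsad2, the antiviral protein viperin, rose from 52.96 and 73.04 to 10249 and 9397 RPKM and reached rank 12. Its change was 7.28 (SE 0.27, adjusted p = 2.95e-08). Gbp5 and Gbp2, GTPases that attack pathogen-containing vacuoles, rose by 7.76 and 7.20, and Ifit2, which restrains translation of viral RNA, by 6.74, to 2852 and 3054 RPKM. Gbp genes are close paralogs, and reads that match several copies could be left out of the counts or assigned to the wrong copy. Isg15, a secreted ubiquitin-like protein counted among induced secreted proteins, rose from 86.77 and 96.25 to 3531 and 3492 RPKM. The members that did not pass were Ifi27l2a, Ifitm2, Ifitm3, Ifitm6 and Irf9, of which Ifitm3 already stood at 4173 and 3323 RPKM at 0 hr. Ifi30, a lysosomal thiol reductase of antigen processing, fell by 0.89, from 196.4 and 246.4 to 117 and 118.9 RPKM, a call lost without 0 hr replicate B, 4 hr replicate A or 4 hr replicate B.

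Antigen presentation covers MHC class I, for peptides from inside the cell, and class II, for engulfed material. Of 16 genes of the immunoproteasome and MHC class I, 13 rose and 0 fell, with a median of 1.33. Tap1, one of the peptide transporters of the endoplasmic reticulum, rose from 51.15 and 56.93 to 587.4 and 537.7 RPKM (change 3.36, SE 0.24), and Psmb10, an inducible proteasome subunit, from 91.49 and 101 to 492.1 and 537.2 RPKM. H2-K1, a class I heavy chain with close copies in the genome, rose by 0.92. B2m, the shared light chain and by far the most abundant member, did not pass, with 10354 and 9520 RPKM and then 10501 and 10165 RPKM (change 0.06, SE 0.13, adjusted p = 0.744). The share of the list therefore went only from 1.41% and 1.44% to 1.88% and 1.76%, a factor of 1.28. The factor was 2.55 without the 10 genes with the largest share at 0 hr and the 10 at 4 hr, among them B2m. Of 6 class II genes, 0 rose and 2 fell by limma, beside 23.5% lower among all tested genes, and 0 fell after centring. Both calls, for H2-Aa and the invariant chain Cd74, were lost in several fits that left out 1 library, with counts of 0 without 0 hr replicate A, 4 hr replicate A or 4 hr replicate B and of 1 without 0 hr replicate B, 6 hr replicate A or 6 hr replicate B.

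Several enzymes that make inflammatory mediators, and most induced secreted proteins, rose. Acod1, which makes itaconate, went from 27.02 and 24.68 to 4717 and 4783 RPKM (change 7.47, SE 0.20, limma adjusted p = 2.9e-09), and Ptgs2, the inducible prostaglandin synthase, from 15.01 and 16.41 to 2886 and 3049 RPKM. Nos2 rose from 1.511 and 2.653 to 623.1 and 653.2 RPKM, and Sod2, the mitochondrial superoxide dismutase, from 192.9 and 142.7 to 1298 and 1342 RPKM. In all, 12 of 31 members of this list rose and 4 fell, and its median was 0.08. The falls were Gclc, Srxn1, Gpx1 and Cyba, the first 3 of them enzymes of antioxidant defence, and Gpx1 went from 689 and 621.7 to 223.3 and 283 RPKM. Without 0 hr A, 0 hr B, 4 hr A and 4 hr B, the falls numbered 1, 2, 1 and 2, and there were 2 after centring. The share of the list changed by a factor of 2.38, or of 4.11 when weighted by coding length. Of 10 induced secreted proteins, 8 rose, 1 fell and 1 did not pass. That list was chosen with earlier results of these data known, so its count of rises is no independent result. Saa3, an acute-phase protein of macrophages, reached 4102 and 3865 RPKM from 44.72 and 51.96, and the collagenase Mmp13 reached 2630 and 2499 RPKM from 17.04 and 24.39. Plau, the urokinase protease, fell by 3.67 (SE 0.17), from 1343 and 1270 to 91 and 113.7 RPKM. Sdc4, a heparan sulfate proteoglycan on no list, rose by 3.64 (SE 0.15) to 5446 and 5006 RPKM and stood at rank 19.

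Genes that restrain NF-kB and MAPK signals rose in 20 of 29 cases and fell in 4, with a median of 2.56. Socs3, which blocks cytokine receptors, rose from 4.587 and 6.996 to 846.4 and 959.6 RPKM (change 7.08, SE 0.22), and Tnfaip3, a ubiquitin-editing inhibitor of NF-kB, from 4.138 and 7.239 to 379.9 and 402.1 RPKM. Nfkbia, the inhibitor IkB alpha, went from 196.5 and 170.8 to 1880 and 1985 RPKM. The Zfp36 family of RNA-binding proteins, which bind AU-rich elements, did not move together. Zfp36 rose by 3.63 (SE 0.21, adjusted p = 8.18e-07), from 91.46 and 115.8 to 1183 and 1403 RPKM, whereas Zfp36l1 fell by 4.28 (SE 0.51), from 110 and 112.7 to 6.502 and 3.46 RPKM, and Zfp36l2 fell by 3.61, from 97.02 and 85.44 to 6.51 and 6.55 RPKM. At 0 hr the values of Zfp36 overlapped those of both others, and at 4 hr Zfp36 lay far above the others. Among 49 components of the TNF and NF-kB pathways there were 27 rises and 2 falls (median 1.61), led by the receptor Cd40, from 17.02 and 43.87 to 2239 and 2289 RPKM. The 2 falls, Mapk14 and Irak4, were 0 without 0 hr replicate A or 4 hr replicate A and 1 without 4 hr replicate B. Of 19 genes of apoptosis and survival, 8 rose and 1 fell (Aifm1, lost without any one 0 hr, 2 hr or 4 hr library), and 5 rose without 4 hr replicate A or 4 hr replicate B. The survival kinase Pim1 rose by 4.58 and the caspase 8 inhibitor Cflar by 3.44.

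**Figure D3:**
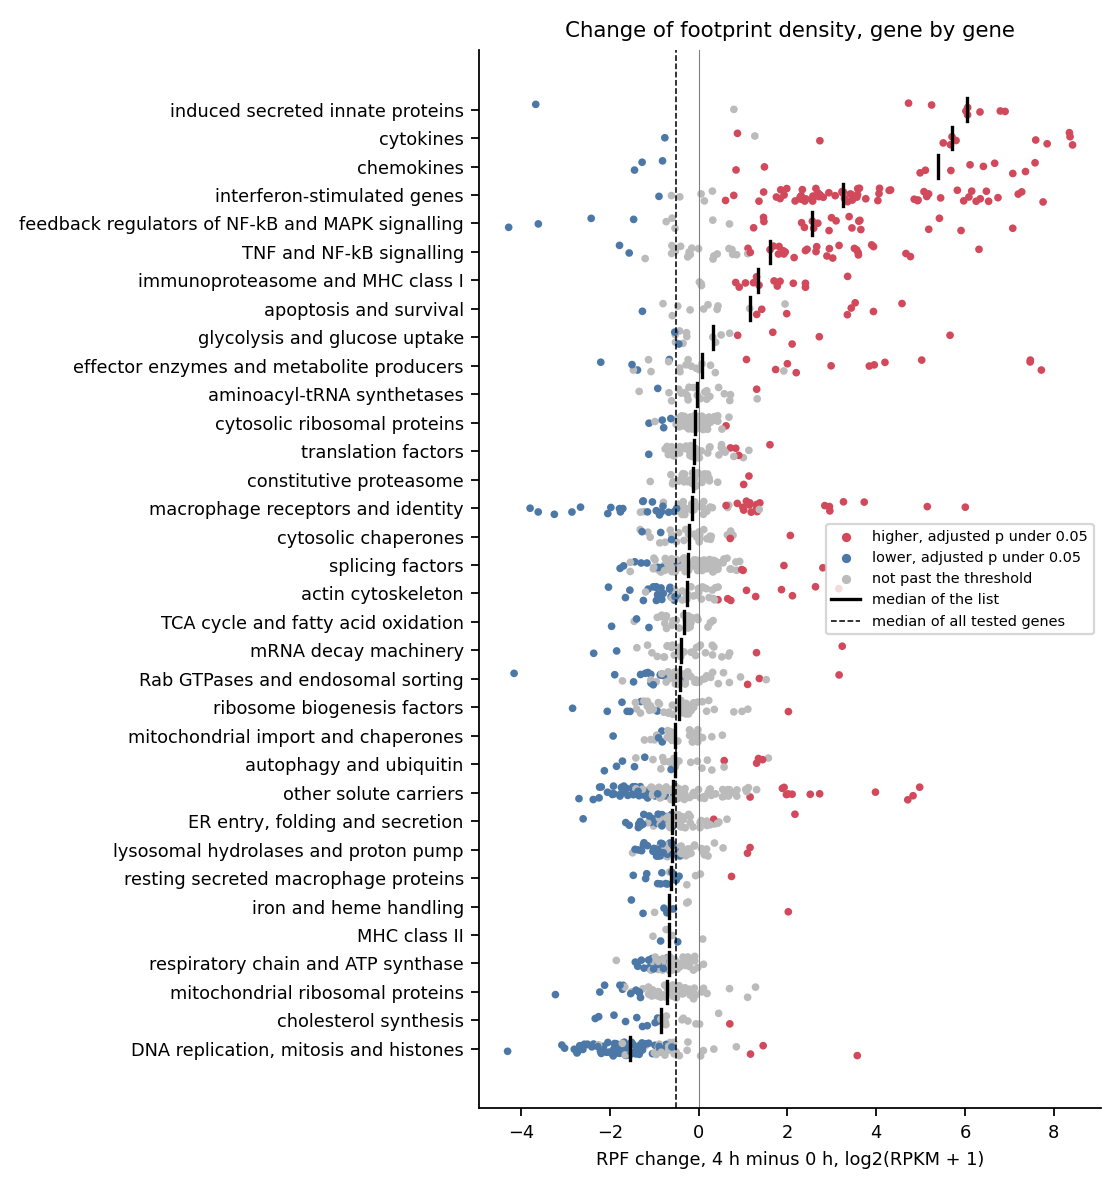
Change in RPFs at 4 hr against 0 hr on the log2(RPKM + 1) scale for each tested member of 34 gene lists (dots, placed at random within a row), coloured where higher (red) or lower (blue) at a limma adjusted p under 0.05 and grey otherwise. Black bars are list medians, and the dashed line is the median of all tested genes at -0.50, so lists such as cytosolic ribosomal proteins at -0.09 lie to its right.

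The largest falls were of genes that resting macrophages translated at moderate levels. Rab3il1, an exchange factor of Rab GTPases, fell by 5.37 (SE 0.34, limma adjusted p = 1.67e-06), from 129.2 and 142.4 to 2.453 and 2.145 RPKM. Irf2bp2, a transcriptional corepressor, had 75.12 and 59.74 RPKM and then 0.67 and 1.171 RPKM. Cd300lb, an activating receptor of myeloid cells, was the most abundant of those named here, with 602.6 and 535.3 RPKM falling to 16.97 and 18.37. Pparg, a nuclear receptor of lipid metabolism, fell by 4.43, from 51.75 and 46.22 to 1.613 and 1.058 RPKM. Further large falls were those of Lfng, Arl11, 1810011H11Rik, Ccne2 and Zfp36l1, with changes of -4.77 to -4.28. For each of the genes given with values the groups lay far apart.

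Products that dominate resting macrophages lost share by moderate changes of very abundant mRNAs. Tmsb4x, the actin-binding thymosin beta 4 and the leading gene at 0 hr, had 53380 and 42674 RPKM at 0 hr and 17974 and 22583 at 4 hr, a change of -1.24 (SE 0.16, limma adjusted p = 0.000293). Its share fell from 6.02% and 5.17% to 2.07% and 2.5%. Lyz2, the macrophage lysozyme, went from 41522 and 38045 to 17412 and 17954 RPKM (change -1.17, SE 0.10, adjusted p = 1.21e-05). Lyz2 and Lyz1 are near-identical copies, as are the processed copies of Tmsb4x, so reads that match several copies could be left out or misassigned. Of 18 resting secreted proteins, a list also chosen with earlier results of these data known, 13 fell and 1 rose, with a median of -0.63. After centring 8 fell, and the rise of Lgals3bp was lost without 0 hr replicate B, 4 hr replicate A or 4 hr replicate B. Gpnmb, a transmembrane glycoprotein of lysosomal stress, fell by 0.92, and the complement subunits C1qa and C1qc changed by -0.83 and -0.70. Apoe, the lipid carrier, fell by 0.51 (SE 0.10, adjusted p = 0.00307), a change close to the median of all genes, and the call was lost after centring and without the mean-variance trend. Spp1, osteopontin, did not pass, with 12335 and 10117 RPKM and then 10563 and 10756 RPKM.

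Lysosomal hydrolases, membrane proteins and the proton pump, which degrade what macrophages engulf, went from 10% and 9.91% of RPKM to 6.8% and 6.36%. Of 63 tested members, 31 fell and 2 rose (among them the protease Ctsc, with 1 rise without 0 hr replicate B, 4 hr replicate A or 4 hr replicate B), with a median of -0.61, and 19 to 27 fell when a 0 hr or 4 hr library was left out (19 without 4 hr replicate B). After centring, 20 fell and 5 rose. Ctsd, the protease cathepsin D, had 12432 and 11319 RPKM and then 5924 and 5873 RPKM (change -1.01, SE 0.10). Ctsb, cathepsin B, fell less, by 0.61, from 19784 and 19809 to 13171 and 12801 RPKM. Lipa, the acid lipase, and Npc1, a cholesterol exporter of lysosomes, fell, with changes of -1.25 and -1.36. Outside this list, the calcium-binding proteins S100a4 and S100a6 fell, with changes of -1.07 and -1.06.

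The share of the actin cytoskeleton changed by -3.89 points and that of Tmsb4x, one of its genes, by -3.31 points, and its other members moved both ways. Of 57 tested, 20 fell and 9 rose (median -0.27). Without 0 hr replicate A, 4 hr replicate A or 4 hr replicate B, 9, 7 and 12 fell. The median was 0.06 after centring, when 17 rose and 9 fell. Actb, beta actin, did not pass, at 10535 and 10291 RPKM and then 10610 and 12010 RPKM. Marcksl1 and Marcks, which link membranes to actin, rose by 3.16 and 2.63, to 1054 and 1184 RPKM and to 678.9 and 664.1 RPKM. Fmnl1 and Coro1c, a formin and a coronin, fell, with changes of -2.03 and -1.65. Weighted by coding length, which gives the share of footprint reads in place of density, the list changed by a factor of 0.874 in place of 0.624.

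Genes of DNA replication, mitosis and histones formed the list with the lowest median, -1.54, and their share went from 2.9% in both 0 hr libraries to 1.13% and 1.22%. Of 100 tested members, 68 fell and 3 rose by limma. Without 0 hr replicate A, 0 hr replicate B, 4 hr replicate A and 4 hr replicate B, 42, 46, 37 and 48 fell. Ccnd1, cyclin D1 of early cell cycle entry, fell by 3.02 (SE 0.20, adjusted p = 2.55e-06), from 575.3 and 513 to 56.57 and 77.31 RPKM. Ccne2, cyclin E2, fell by 4.30, from 88.17 and 50.69 to 2.382 and 2.499 RPKM. Ccnd2, cyclin D2, went the other way, from 19.73 and 16.41 to 222 and 228.6 RPKM (change 3.57, SE 0.33). The cell cycle inhibitor Cdkn1a, on the list of survival genes, rose by 3.35 (SE 0.20), from 221.3 and 194 to 1973 and 2287 RPKM.

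Mitochondrial proteins encoded in the nucleus lost share in several lists at once. The respiratory chain and ATP synthase, the mitochondrial ribosome, protein import and the TCA cycle together went from 3.46% and 3.73% to 2.14% and 2.24%. Of 31 genes of the TCA cycle and fatty acid oxidation, 3 fell (median -0.34), and of 28 of mitochondrial import, 4 fell (median -0.53). Both are smaller parts than the 23.5% lower among all tested genes, whose median was -0.50. After centring, 1 and 0 of them fell. Of 75 subunits of the respiratory chain, 0 rose and 25 fell by limma (median -0.68), beside 11.7% higher and 23.5% lower among all tested genes. The falls numbered 9 without either 0 hr library, 5 without 4 hr replicate A and 10 without 4 hr replicate B. After centring 6 of the 75 fell, beside 685 of all 5277 tested genes. Atp5e, a subunit of ATP synthase, fell by 1.37 (SE 0.19), from 988.8 and 1208 to 408.7 and 435.2 RPKM. Ndufb8, of complex I, fell by 1.23, from 210.6 and 237.3 to 98.23 and 91.24 RPKM. Of 60 mitochondrial ribosomal proteins, 0 rose and 11 fell by limma (median -0.70), a smaller part than the 23.5% lower among all tested genes, and 5, 4 and 5 fell without 0 hr replicate B, 4 hr replicate A and 4 hr replicate B. After centring, 2 rose and 6 fell. Entry into and folding in the endoplasmic reticulum, through which the induced chemokines are also made, had 26 of 67 members lower and 2 higher (median -0.60), with 9, 14, 9 and 6 lower without 0 hr A, 0 hr B, 4 hr A and 4 hr B. After centring, 10 were lower and 3 higher. The coat subunit Sec24b was one of the rises (2.17, SE 0.26), which numbered 1 without any one 0 hr, 4 hr or 6 hr library.

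Cholesterol synthesis fell in 10 of 21 tested members and rose in 1 (lost without any one 0 hr or 4 hr library), with a median of -0.85. Msmo1 and Dhcr7, enzymes of the later steps, fell, with changes of -2.25 and -2.33. Msmo1 had 410.3 and 303.1 RPKM and then 78.24 and 68.68 RPKM. The falls numbered 3 without 0 hr replicate A, 3 without 4 hr replicate A, 4 without 4 hr replicate B and 5 after centring.

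The lists of the translation apparatus had medians above that of all genes, both as fitted and after centring, when the median of all genes was -0.18. Of 80 cytosolic ribosomal proteins, 1 rose and 4 fell, with a median of -0.09, above the median of all genes. Their share went from 3.31% and 3.46% to 2.72% and 2.9%. Rpl41 fell by 1.12 (SE 0.15, adjusted p = 0.000293), from 2673 and 3132 to 1291 and 1376 RPKM and was the most abundant of them. Ribosomal protein genes have many processed copies, so their reads are uncertain. The number of falls was 1 without 0 hr replicate B or 4 hr replicate A, and the 1 rise, Rpl24, was lost without any one 0 hr, 2 hr, 4 hr or 6 hr library. After centring, 9 rose and 1 fell, and the median was 0.24. Among 46 translation factors 4 rose and 1 fell (median -0.11), smaller parts than the 11.7% higher and 23.5% lower among all tested genes. The rises numbered 2 without 0 hr replicate B or 4 hr replicate B and 7 without either 1 hr library, and the fall, of Eif4e, was lost without any one 0 hr or 4 hr library. Eef2 and Eef1a1, the elongation factors, rose by 0.84 (SE 0.14, adjusted p = 0.00136) and 0.72 (adjusted p = 0.0067), Eef2 from 327.9 and 320.8 to 557.1 and 604.4 RPKM. Pabpc1, the cytoplasmic poly(A)-binding protein, rose by 1.61 (SE 0.32, adjusted p = 0.00355), from 52.24 and 64.05 to 175.2 and 181.4 RPKM. Of 23 aminoacyl-tRNA synthetases, Rars rose and Dars fell, the latter not without any one 0 hr or 4 hr library, and the median was -0.03. Without either 1 hr library 3 rose. Of 35 subunits of the constitutive proteasome, 2 rose and 0 fell by limma (median -0.13), with 1 rise without any one 0 hr or 4 hr library and 2 falls without either 1 hr library.

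In glycolysis, the rises were mostly of genes for glucose entry and the first steps. Pfkfb3, which makes the activator of phosphofructokinase, rose from 3.356 and 3.723 to 230.6 and 227.5 RPKM (change 5.66, SE 0.35). The hexokinase Hk2, the glucose transporter Slc2a1 and the phosphofructokinase Pfkp rose by 2.72, 2.11 and 1.67. Of 17 tested members 5 rose and 2 fell, the falls being Tpi1 and Pkm. There were 0 falls without 0 hr replicate B or either 4 hr library and after centring, 1 without 0 hr replicate A and 4 without either 1 hr library, and 8 rises after centring. Gapdh did not pass, at 489.8 and 442.3 RPKM and then 347.1 and 431 RPKM. The share of the list went from 0.524% and 0.554% to 0.476% and 0.49%.

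Receptors and transcription factors that mark macrophages were divided, with 19 of 68 higher and 21 lower (median -0.16, and 0.17 after centring). Among all tested genes, 11.7% were higher and 23.5% lower. After centring, 21 of the 68 were higher and 17 lower. Tlr4, the LPS receptor, fell by 1.76 (SE 0.26, adjusted p = 0.000556), from 108.4 and 90.64 to 28.7 and 28.39 RPKM, while its co-receptor Cd14 rose by 1.19 (SE 0.13) from 1645 and 1343 to 3471 and 3290 RPKM. Tlr2 and Tlr3 rose by 2.84 and 3.26, and Tlr13, a sensor of bacterial ribosomal RNA, fell from 343.9 and 245.3 to 17.82 and 22.39 RPKM. Clec4e, the receptor Mincle for mycobacterial glycolipids, rose from 66.84 and 67.4 to 2415 and 2427 RPKM. Csf1r, the receptor of the growth factor that sustains BMDMs, fell by 1.04, from 1900 and 1677 to 903.2 and 832 RPKM. The factors Cebpa and Mef2c fell, with changes of -3.61 and -2.66, while Spi1, the factor PU.1, rose by 0.62 (SE 0.15, adjusted p = 0.0089).

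RNA from the same cultures changed much like the footprints. On RNA-seq RPKM, 24.3% of 4805 tested genes were higher at 4 hr and 51.7% lower by limma, a larger part than for RPFs. The median standard error of a change was 0.12 for RNA and 0.38 for RPFs. Across 4621 genes tested in both, Pearson's r between RNA and RPF changes was 0.962, where genes are not independent and the values come from the same cultures. Of the 603 genes with more RPFs, 595 also had more RNA and 1, Eef1a1, had less, and of the 1098 with fewer RPFs, 1019 had less RNA. The ratio of the 2, the apparent translation efficiency (TE), gave 0 genes at an adjusted p under 0.05 by limma, with 339 at an unadjusted p under 0.05 and a smallest adjusted p of 0.658. The share of chemokines was 8.32% and 8.87% of RNA RPKM at 4 hr, against 14.5% and 15.1% of RPF RPKM. Ribosomal proteins went from 11.3% and 9.56% of RNA RPKM to 5.71% and 5.57%, a factor of 0.54, while their factor in RPFs was 0.831. The median RNA change of the 80 genes was -0.74, beside -0.09 for RPFs, and 76 of them had a TE change above 0. For lysosomal proteins the median was -0.18 in RNA and -0.61 in RPFs, and 5 of 63 had a TE change above 0. The median TE change over all 4621 genes was -0.20, so most genes lay below 0. Low counts above 0 were not particular to lysosomal proteins, with 5 of 65 macrophage receptors and identity genes and 0 of 17 resting secreted proteins. Among translation factors, 25 of 45 lay above 0. Pabpc1 RNA changed by -0.33, Eef2 RNA by -0.21 and Cxcl10 RNA by 8.96. No single TE change of these genes passed the test.

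**Figure D4:**
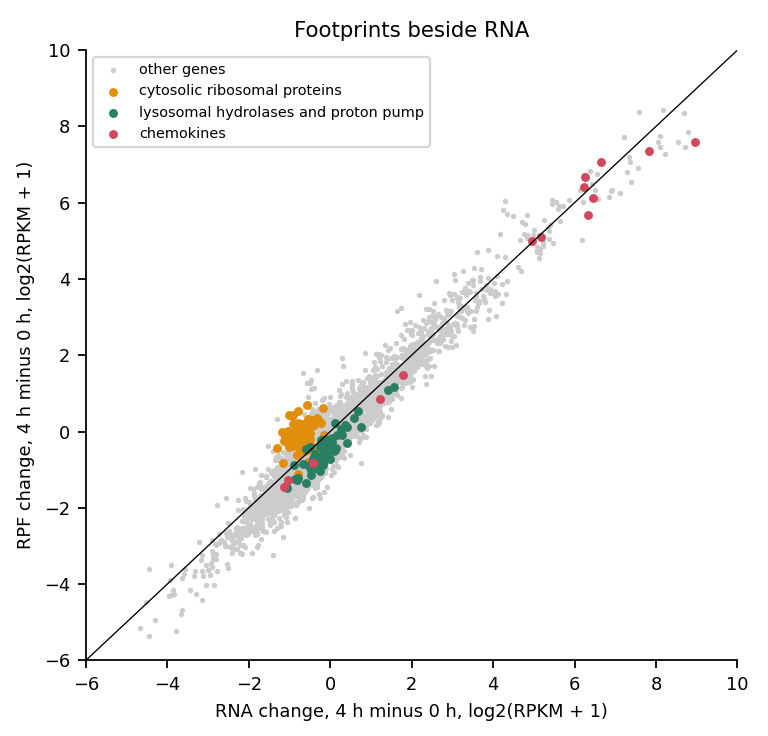
Change in RPFs (vertical) against change in RNA (horizontal), 4 hr against 0 hr on the log2(RPKM + 1) scale, for the 4621 genes tested in both assays (grey), with 3 lists coloured. Cytosolic ribosomal proteins (orange) lie above the line of equal change, with a median TE change of 0.64, and lysosomal proteins (green) below it, with a median of -0.41, beside -0.20 over all genes.

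The other time points, which share the 0 hr libraries, place 4 hr within the response. Chemokines held 5.38% and 5.95% of RPF RPKM at 1 hr, 8.83% and 9.51% at 2 hr, and 8.97% and 9.08% at 6 hr, so their share at 4 hr was above that at every other time in both libraries. Interferon-stimulated genes had 1.03% and 1.25% at 1 hr, 1.43% and 1.62% at 2 hr and 5.8% and 5.85% at 6 hr. Cytokines already held 1.63% and 1.8% at 1 hr, then 0.86% and 0.903% at 2 hr and 1.59% and 1.74% at 6 hr. Induced secreted proteins went on to 3.54% and 3.73% at 6 hr. Tnf had 7516 and 7489 RPKM at 1 hr and 556.9 and 579.6 RPKM at 6 hr, on either side of its value at 4 hr. Ccl5 had 15907 and 17086 RPKM at 6 hr, while Ccl3 had 8735 and 8610 RPKM. Ribosomal proteins held 3.94% and 3.6% at 1 hr, 4.09% and 4.03% at 2 hr and 2.27% and 2.09% at 6 hr.

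**Figure D5:**
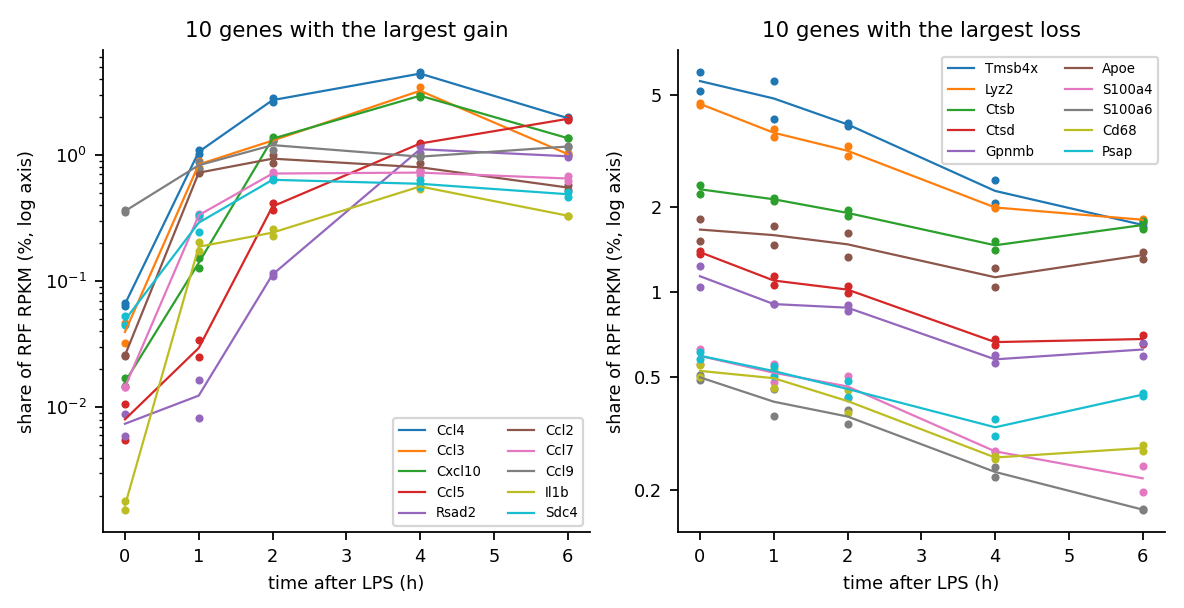
Share of RPF RPKM (%, log axis) over time after LPS (hr) for the 10 genes with the largest gain (left) and the 10 with the largest loss of share (right) between 0 and 4 hr, with a point per library and a line through the means. Ccl4 reached 4.29% and 4.54% at 4 hr, and Tmsb4x fell from 6.02% and 5.17% to 2.07% and 2.5%.

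Most of the induced chemokines are short proteins, so the mean size of the product was also described. Weighted by RPF RPKM, the mean length of the encoded protein was 336 and 333 amino acids at 0 hr and 337 and 329 at 4 hr. Without chemokines it went from 338 and 335 to 377 and 370 amino acids, and stayed at 375 and 378 at 6 hr. Coding lengths came from RefSeq mRNAs for 6387 of the 6397 genes, the longest per gene. The 4 secreted lists together held 13.6% of RPKM in both 0 hr libraries and 25.4% and 25.6% at 4 hr. They also hold the transmembrane protein Gpnmb, so the sum is not of secreted products alone.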

How the data were processed

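Ribo-seq and RNA-seq were made from the same BMDM cultures along a time course of LPS, with replicates A and B. Per the study's methods, low-quality ends were cut with FASTX-Toolkit, and reads matching rRNA, tRNA or mitochondrial DNA were set aside with Bowtie. TopHat on mm10 with RefSeq annotation is stated for RNA-seq, and the aligner of the footprints is not given in the sources used here. Counts per gene came from HTSeq with a minimum alignment quality of 10, which can leave out reads that match several places. The authors deposited RPKM values in place of counts. The methods state a minimum of 10 RPKM at all stages, but the deposited table holds values down to 0.0866 RPKM and none of 0. A deposited table of differential genes, which holds the authors' own comparisons, and a table of Zfp36 binding sites were not used here.

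RPKM plus a pseudocount of 1 was taken to log2. Genes whose 10 Ribo-seq libraries averaged 10 RPKM or more were fitted in limma 3.58.1 (R 4.3.3) with 1 mean per time, all 10 libraries sharing the estimate of spread, a mean-variance trend and Benjamini-Hochberg adjustment over the 5277 genes at a threshold of 0.05. RNA was fitted likewise on its 10 libraries, and TE on the difference of the log2 values. All fold changes are on the log2(RPKM + 1) scale, which understates the change of low genes. Shares are percentages of a library's summed RPKM, a measure of ribosome density and not of protein mass. Reads behind a value were recovered from the steps between low RPKM values with a tolerance of 0.06 reads. Of these low values, 88.1 to 99.2% lay on whole reads in Ribo-seq, and the depth of RNA-seq was not resolved. Intervals cover counting error only. The fit was tested on simulated data, where it missed most of the smaller changes put in. Python 3.11.15, numpy 2.4.6, pandas 2.3.3 and matplotlib 3.10.9 were used for summaries and figures.

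The genes and lists were chosen with earlier results of these data known. The named genes were the 10 largest rises and falls past the threshold without overlap, the 10 with the largest share at either time and the 10 with the largest gain and loss, up to 4 members of each list with the largest change past the threshold (the 2 with the smallest p where none passed), and Tnf, Il6, Il10, Il1b, Cxcl2, Ccl3, Ccl4, Zfp36, Pabpc1, Gapdh and Sdc4. Other named genes, such as Gpx1, Tlr4, Eef1a1 and Rpl24, were chosen after their values were seen. Alternatives covered the pseudocount, the filter, centring, library weights, the trend, the libraries fitted, a replicate block, leaving out each library, and the weighting of shares. A few genes that this rule names are not reported here.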

Additional observations from a re-analysis of the deposited data

How the results depend on the processing

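More genes were lower than higher in every fit listed here other than median centring, and the number called depended on the setting. With at least 10 RPKM required in every library, 408 genes were higher. The lower genes numbered 2080 with library weights, 2175 with only the 4 libraries of 0 and 4 hr, and 685 with median centring. Without 1 hr replicate B and 6 hr replicate A together, an alternative chosen after seeing the data, 1770 genes were lower. Leaving out 1 library of any time gave 424 to 703 higher and 531 to 1585 lower genes. With a replicate block, 607 genes were higher and 1197 lower. The main fit did not pair libraries by letter, and whether a letter links cultures of different times is not stated. Deviations of the A libraries from the means of their times correlated across genes at -0.022 to 0.017.

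With median centring, the median changes of the following lists turned positive: cytosolic ribosomal proteins 0.238, translation factors 0.218, aminoacyl-tRNA synthetases 0.294, constitutive proteasome 0.197, cytosolic chaperones 0.098, actin cytoskeleton 0.056, macrophage receptors and identity 0.168 and splicing factors 0.087. The median of the aminoacyl-tRNA synthetases lay between -0.090 (without 4 hr replicate A) and 0.022 (without 0 hr replicate B) when 1 library was left out, and was 0.000 without 4 hr replicate B. The cause was not tested.

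Weighted by coding length, the ratio of list shares was 0.918 for cytosolic ribosomal proteins, 0.874 for the actin cytoskeleton, 16.1 for chemokines, 0.644 for resting secreted macrophage proteins, 8.92 for interferon-stimulated genes and 0.44 for DNA replication, mitosis and histones. A further setting left out the 10 genes of largest share at 0 hr and the 10 at 4 hr. The ratio was then 0.739 for lysosomal proteins, 0.851 for the actin cytoskeleton, 4.72 for chemokines, 0.695 for resting secreted macrophage proteins and 5.15 for interferon-stimulated genes. Of 162 named genes tested, 47 lost their call in at least 1 alternative. Each time has 2 libraries, and the part of depth and of replicate spread in the genes that were not called was not tested.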

Other observations

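The list of other solute carriers kept a nearly constant share, 0.832% and 0.831% of RPF RPKM at 0 hr and 0.88% and 0.848% at 4 hr. It includes Slc2a6 of the glucose transporter family, which rose by 4.83, from 26.94 and 18.84 to 678.6 and 659.7 RPKM. Of 109 tested members, 12 rose and 32 fell by limma, near the 11.7% and 23.5% of all tested genes, and 23 rose and 19 fell after centring. Further, without 0 hr A, 0 hr B, 4 hr A and 4 hr B 17, 19, 13 and 12 fell, while 18 and 19 rose without 1 hr A and 1 hr B. Slc7a2, a carrier of arginine, rose by 4.98 and Slc7a11, the cystine carrier, by 3.98. Of 10 genes of iron and heme handling, 5 fell and 1 rose, and 3, 2 and 3 fell without 0 hr A, 4 hr A and 4 hr B and 3 after centring. Hmox1, which degrades heme, fell by 1.52, and Slc11a2, an iron carrier, rose by 2.02.

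Of 64 Rab GTPases and endosomal sorting genes, 14 fell and 3 rose, close to 23.5% lower over all genes, with 6 rises and 8 falls after centring. In single omissions, 8, 8, 6 and 8 fell without 0 hr A, 0 hr B, 4 hr A and 4 hr B. Rab7b, of late endosomes, fell by 4.16, and Rab20 rose by 3.17. Of 94 splicing factors, 4 rose and 10 fell, a smaller part lower than the 23.5% of all genes, and after centring 10 rose and 2 fell. The rises numbered 2 without 4 hr B and 7 without 1 hr A or 1 hr B. Further, 3, 5, 1 and 2 fell in the same order of libraries left out and 18 and 19 without 1 hr A and 1 hr B. Of 33 genes of mRNA decay, 2 rose and 2 fell, smaller parts than the 11.7% higher and 23.5% lower among all tested genes. The falls numbered 0 without 0 hr A, 0 hr B or 4 hr A and 1 without 4 hr B, and the rises 1 without any one of these libraries. The decapping enzyme Dcp2 rose by 3.24.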
